A study of Arabidopsis thaliana with 8 samples.

Results

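The transcriptional response of wild-type Arabidopsis thaliana seedlings to prolonged heat was described across all genes that these seedlings measurably expressed. Members were the genes with at least 1 TPM (a transcript level scaled for transcript length and library size) in at least 2 of the 4 wild-type libraries, which gave 18920 of the 19697 genes tested and of the 27655 rows of the table. The control group was 2 libraries of Col-0 wild-type seedlings, 7 days old, kept at 22 °C without treatment. The heat group was 2 libraries of Col-0 seedlings held at 38 °C for 16 h from the same age. All seedlings grew on diluted MS medium with sucrose under long days. A further 4 libraries, 2 at each temperature, came from the T-DNA insertion line prp43a, which disrupts a predicted RNA helicase of the spliceosome; they entered the fit only to help estimate the spread between replicates, and a comparison with them closes the account. The labels name the replicates as biological but do not say whether they came from separate cultures, so the p-values measure the spread between these libraries.

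Plant cells answer heat through heat shock transcription factors, which bind inverted repeats of the short unit GAA (heat shock elements) and switch on chaperones that hold, refold or dissolve damaged proteins. Small heat shock proteins hold unfolding proteins, HSP70 and the barrel-shaped chaperonins refold them, and the proteasome and autophagy remove those that cannot be rescued. Seedlings under long heat also commonly lower photosynthesis, growth and defense metabolism, so the results below follow that order, from protein protection to regulators, to the clock, to photosynthesis, growth, defense and hormones.

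Recovered reads in the 4 wild-type libraries numbered 4423898 to 4579468, so all 4 were of nearly equal depth. Replicates of a group correlated at 0.983 in both groups on the log2(TPM + 1) scale over the 19697 genes, and control and heat libraries at 0.743 to 0.762. The hour of harvest and the light during the heat are not given in the labels, so changes with the clock hour and changes with the temperature cannot be told apart. Of the marker lists, the green-tissue genes RBCS1A, RCA and CAB3 were abundant in every library, although RBCS1A and RCA fell, as given below. RBCS1B fell from 1857 and 2204 TPM to 367 and 412 TPM. Of 15 root genes 8 passed the member filter. The root hair genes EXPA7 and SHV2 stayed below 1 TPM in each library. PRP3 had 0 and 3.44 TPM in the control libraries and 0 and 0.3 TPM in the heat libraries. EXPA18 had 0.861 and 1.12 TPM in the control libraries and 0.292 and 0.293 TPM in the heat libraries. Seed genes were at or near 0 except SESA1, at 4.16 and 3.13 TPM after heat, with CRU2, CRU3, OLEO1, SESA2 and SESA3 listed at 0 in all 4 libraries. The flower genes AP1 and LFY were also listed at 0. Of 8 flower and pollen genes 2 passed the filter, and both fell. SEP3 went from 30.8 and 31.4 TPM to 15.8 and 8.64 TPM. SEP1_2 went from 1.64 and 1.14 TPM to 0 and 0 TPM. In whole seedlings, fewer cells of a type and less RNA per cell cannot be told apart.

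Heat changed most of the expressed genome. In the limma fit, 8254 members rose and 5352 fell at an adjusted p below 0.05, which is 71.9% of all members called, 43.6% upward and 28.3% downward. The median change of all members was 0.26 on the log2 scale, with quartiles of -0.64 and 1.03. With a change of at least 2-fold also required, 4835 rose and 3429 fell, or 43.7% of members. At least 8-fold changes were seen upward in 403 genes and downward in 408, and at least 32-fold changes upward in 110 and downward in 24. Of the 110, 45 were encoded in the mitochondrial genome, 21 were nuclear copies of it (described below) and 44 were other genes. The 403 include these mitochondrial rows and copies. The median absolute change, 0.87, exceeded the median absolute difference between replicates, 0.17 for control and 0.20 for heat. The 2 heat libraries lay wholly above or wholly below the 2 controls for 85.2% of members.

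The direction of the small changes depended on scaling. Median-of-ratios scaling moved the median of all genes tested from 0.25 to 0.00, and the upward share of called genes then went from 60.5% to 49.6%; quantile normalization gave 52.5%. None of the called members that changed sign under either scaling (50 and 38 genes) had a change of 2-fold or more. The lists below are therefore read against the median of all members, 0.26, and against the shares of 43.6% upward and 28.3% downward.

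**Figure D1:**
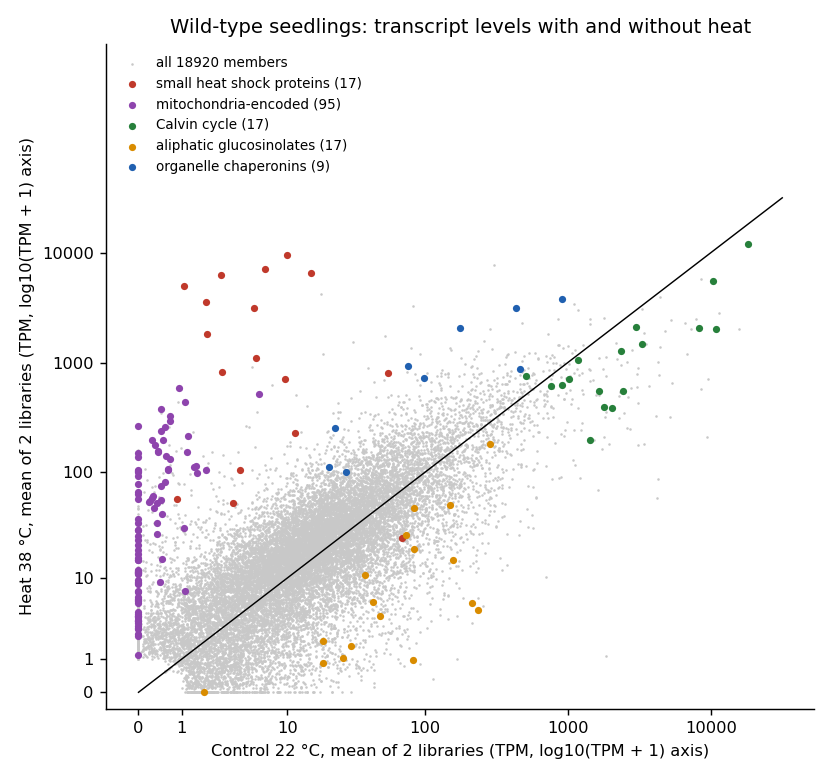
Mean TPM of each of the 18920 members in the 2 control libraries (horizontal) and the 2 heat libraries (vertical) on log10(TPM + 1) axes, with the line of equal levels. Small heat shock proteins (red) and mitochondria-encoded genes (purple) lie far above the line, and Calvin cycle genes (green) and aliphatic glucosinolate genes (orange) mostly lie below it.

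Heat spread the RNA over more genes. In the controls, 442 and 436 genes held 50% of all TPM, and in the heat libraries 769 and 835 genes did. The 100 most abundant genes of a library held 33.7% and 33.4% of its TPM without heat and 22.2% and 21.2% after heat. All gains summed to 40.5% of all TPM and all losses to -40.5%; the 10 largest gains made up 5.59% of all TPM and the 10 largest losses -8.08%. All 10 losses were genes of light harvesting or of Rubisco and its activase, and 7 of the 10 gains were small heat shock proteins. The other 3 gains were GASA1, a small cysteine-rich peptide gene of the gibberellin-regulated GASA family, the FKBP-type peptidyl-prolyl isomerase gene AT5G48570, and the RNA-binding protein gene GRP7. GASA1 (chromosome 1, 28441501 to 28442435 of TAIR10.1, as for all positions given) stood at 303 and 309.7 TPM in the control libraries and 8202 and 7244 TPM in the heat libraries, a rise of 4.65 ± 0.11 (log2 ± SE). AT5G48570 rose from 18.7 and 17.1 TPM to 4449.9 and 4031 TPM. GASA1 after heat was as abundant as the leading small heat shock proteins, although it was already well expressed in the controls.

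Small heat shock proteins, the ATP-independent holdases of heated cells, were the most strongly changed of the lists. Of 17 genes, 16 rose and 1 fell, with a median change of 7.78. Together they held 0.0214% and 0.0198% of all TPM in the controls and 5.36% and 3.99% after heat. HSP21, the chloroplast member (chromosome 4, 13818825 to 13819971), had 1.1 and 1.07 TPM in the control libraries and 5458 and 4547 TPM in the heat libraries, a rise of 11.22 ± 0.10 (adjusted p = 3.6e-12), the highest log2 change of any member at 10 TPM or more. HSP17.4, a cytosolic class I protein, stood at 9.57 and 3.74 TPM without heat and 7924 and 6326 TPM after heat. HSP18.2 of the same class reached the highest level of the list, at 10.3 and 9.67 TPM without heat and 11866 and 7096 TPM after heat. The mitochondrial HSP23.6-MITO rose from 2.4 and 1.67 TPM to 1969.5 and 1697 TPM and ATHSP22.0, of the endomembrane system, rose from 3.47 and 2.03 TPM to 7019.5 and 5557 TPM. These 5 named members, directed to the cytosol, chloroplast, mitochondrion and endomembranes, were thus at 10.3 TPM or less without heat. After heat they were at 1697 TPM or more, with the groups far apart. The exception was AT4G21870, an HSP20-like gene with 62.97 and 74.3 TPM without heat and 19.8 and 29.1 TPM after heat, which fell by 1.47 ± 0.17. Because close copies within class I can share reads, levels of single class I genes are less certain than their sum.

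The folding machines that use ATP rose as well. Of 12 HSP70 genes 11 rose (median 2.41), and the exception, the endoplasmic reticulum gene BIP3, stayed near 1 TPM in each library. HSP70 itself rose from 60.8 and 42.3 TPM to 1851 and 1620.0 TPM, the mitochondrial MTHSC70-2 from 43.6 and 42.7 TPM to 737 and 599 TPM, and the chloroplast cpHsc70-1 from 222 and 231 TPM to 1158 and 1154 TPM. All 9 chaperonin genes of the chloroplast and mitochondrion rose (median 2.86), and together they went from 0.204% and 0.241% to 1.16% and 1.24% of all TPM. The mitochondrial HSP60 was at 70.9 and 80.8 TPM in the control libraries and 937 and 925 TPM in the heat libraries, and the chloroplast Cpn60beta2 at 159.6 and 191 TPM in the control libraries and 1978 and 2189 TPM in the heat libraries. The cytosolic TCP-1 chaperonin, which folds actin and tubulin, moved less: all 9 subunits rose, by 0.40 to 1.05, and 5 of the 9 were still called under median-of-ratios scaling and under quantile normalization. The median of the organelle chaperonins, 2.86, lay above the highest change in the cytosolic ring. The ranges overlapped, as the chloroplast CPN60B rose by 0.92.

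**Figure D2:**
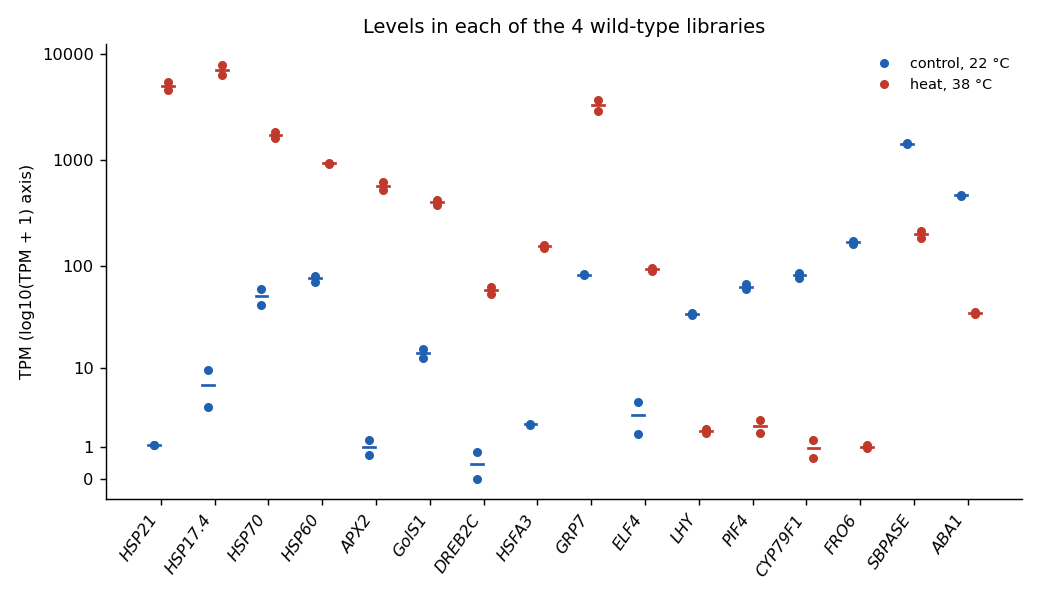
TPM of 16 genes in each of the 4 wild-type libraries on a log10(TPM + 1) axis, blue for control and red for heat, with a short line at each group's mean. From HSP21 to ELF4 the heat points lie above the control points, and from LHY to ABA1 they lie below, with no overlap in any of the 16.

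The promoters of 2 small heat shock protein genes are shown, chosen because they hold the heat shock element of 3 units upstream of the gene start; HSP21, which had a higher change, holds none in the window searched. The motif searched on both strands was GAANNTTC for 2 inverted units, and for 3 units GAANNTTC extended by NNGAA after it or by TTCNN before it, so each match of the longer motif contains the shorter. The window ran from 250 bases before to 50 after the annotated gene start in RefSeq's TAIR10.1, and the 250 bases before the start are printed 5′ to 3′ along the gene's strand, with the element of 3 units in capitals.
AT1G53540, chr1:19980049-19980298, plus strand: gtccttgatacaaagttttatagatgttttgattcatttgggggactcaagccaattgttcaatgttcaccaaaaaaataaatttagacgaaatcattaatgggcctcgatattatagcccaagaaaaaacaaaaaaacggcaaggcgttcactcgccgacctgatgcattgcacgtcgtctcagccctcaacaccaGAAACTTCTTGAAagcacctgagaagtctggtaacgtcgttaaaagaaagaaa
HSP17.4, chr3:16984868-16985117, minus strand: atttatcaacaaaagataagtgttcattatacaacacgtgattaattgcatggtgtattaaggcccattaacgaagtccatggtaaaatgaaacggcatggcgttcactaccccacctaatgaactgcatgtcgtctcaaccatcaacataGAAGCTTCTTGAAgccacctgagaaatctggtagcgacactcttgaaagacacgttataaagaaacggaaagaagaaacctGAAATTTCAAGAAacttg
AT1G53540, a class I small heat shock protein gene with 2.39 and 1.55 TPM without heat and 4010.2 and 3066 TPM after heat, holds 1 element, beginning 53 bases before the start. HSP17.4 holds 2, beginning 99 and 18 bases before it. Hop3, an HSP70-HSP90 co-chaperone gene, and HSP70 also hold an element, which begins 24 and 20 bases after the annotated start.

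Across promoters, the share with a heat shock element rose with the size of the heat change. Promoters of 18696 members were read, without those of genes copied from the mitochondrial genome (described below). The element of 3 units was found in 4 of 43 genes at least 32-fold higher (9.30%), in 7 of 226 genes 8- to 32-fold higher (3.10%) and in 0.705% of those 2- to 8-fold higher. It was found in 0.509% of genes not called or under 2-fold, in 0.266% of those 2- to 8-fold lower and in 0 of 408 at least 8-fold lower. All members gave 0.556% and all 27438 promoters of the table's genes 0.481%. The element of 2 units ran from 20.9% in the first of these classes to 11% in the last, against 11.4% of all members. The motifs CACGTG (the G-box) and TATAAA, also searched, were most frequent in the first class too. They stood at 14% and 41.9% there, against 8.79% and 35.5% of all members, and TATAAA at 40.9% in the last class. A higher share in the first class was therefore not particular to the heat shock element. The classes were cut on the heat change itself, so these shares are a description, and most of the 43 genes have no element of 3 units in this window.

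**Figure D3:**
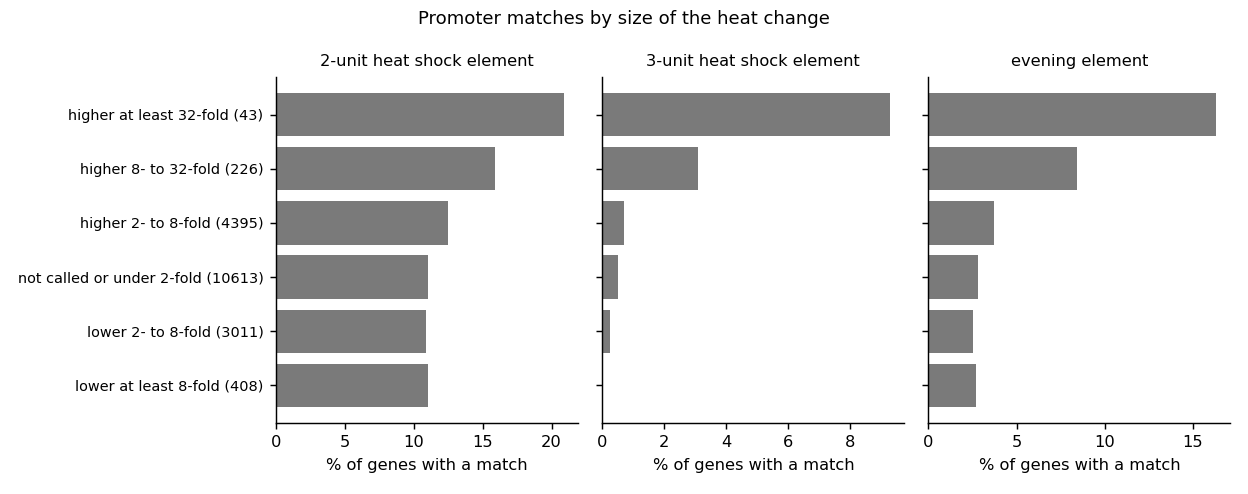
Percent of genes whose promoter window holds the 2-unit heat shock element, the 3-unit heat shock element or the evening element, by class of heat change with the number of genes in brackets. All bars start at 0, and all 3 motifs are most frequent in the class of 43 genes at least 32-fold higher. The G-box and TATAAA, not drawn, are also most frequent in that class.

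Genes of protein disposal and RNA quality control rose together, by smaller amounts. Of 30 subunit genes of the 26S proteasome, 27 rose and 1 fell, with a median of 1.06; under median-of-ratios scaling the counts were 23 and 3, and the fall, of PAE2, was not called without control replicate 2 (-0.29). RPT3, an ATPase of the regulatory particle, rose from 65.1 and 58.3 TPM to 295 and 257 TPM, and PBD2, a subunit of the proteolytic core, from 38.9 and 34.9 TPM to 171 and 141 TPM. Of 15 autophagy genes 11 rose and 2 fell, and the 2 that fell belonged to the same family as those that rose most. ATG8D, which coats the growing autophagosome, rose from 12.2 and 7.44 TPM to 78.3 and 69.2 TPM, while its relatives ATG8F and ATG8E fell, from 98.6 and 85.9 TPM to 17.2 and 19.3 TPM and from 98.5 and 111 TPM to 39.5 and 34.8 TPM. NBR1, the receptor that brings ubiquitinated aggregates to autophagosomes, rose from 92.2 and 75.7 TPM to 235 and 212 TPM. Of 19 genes of RNA silencing 14 rose and 1 fell (median 0.92): SE, which serves microRNA processing, was at 26.6 and 27.1 TPM without heat and 116 and 112 TPM after heat, DCL1 rose from 12.9 and 15.3 TPM to 39.8 and 44.7 TPM, and AGO4, of DNA-directed silencing, fell from 20.4 and 22.2 TPM to 8.98 and 12.2 TPM. Of 11 genes of nonsense-mediated decay and XRN exonucleases 9 rose and none fell (median 0.64), with UPF3 going from 19.3 and 20.8 TPM to 39.8 and 41.7 TPM; under median-of-ratios scaling and under quantile normalization 7 rose and 1 fell (medians 0.36 and 0.38).

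Cytosolic ribosomal proteins gave no direction as a family. Of 182 members 80 rose and 42 fell, with a median of 0.17, but under median-of-ratios scaling 57 rose and 71 fell (median -0.11) and under quantile normalization 59 and 71 (median -0.09). Their summed level was 3.47% and 3.91% of all TPM in the controls and 4.69% and 4.48% after heat. Single genes moved far in both directions: AT4G26230 rose from 204 and 226 TPM to 933 and 927 TPM and AT3G11120 fell from 287 and 314 TPM to 86.6 and 80.8 TPM. The 47 nuclear genes of organelle ribosomes split alike, with 18 higher and 14 lower, and their median of 0.06 turned to -0.23 and -0.15 under the same scalings and to -0.03 and -0.01 without control replicate 1 and without heat replicate 2. PSRP3/1, a plastid-specific ribosomal protein gene, fell from 569 and 579.5 TPM to 107 and 101 TPM.

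Among regulators, members of the DREB2 family, activators of drought and heat genes, rose from almost nothing. DREB2C had 0.769 and 0 TPM in the control libraries and 63.03 and 54.4 TPM in the heat libraries, and DREB2B 0.23 and 0 TPM in the control libraries and 21.04 and 25.8 TPM in the heat libraries. DREB2A rose less, from 3.7 and 1.27 TPM to 21.2 and 12.6 TPM. HSFA3, a heat shock factor known to act downstream of DREB2 proteins, rose from 2.27 and 2.22 TPM to 149 and 157 TPM, and HSFA2, the factor that sustains acquired thermotolerance, from 4.4 and 2.43 TPM to 94.8 and 80.6 TPM; both were picked out after their values were seen. Of 45 NAC factors 23 rose and 10 fell. NAC044, known from growth arrest after DNA damage, was at 1.46 and 1.22 TPM without heat and 67.5 and 68.6 TPM after heat, and NAC103, a relay of the unfolded protein response, at 1.64 and 2 TPM without heat and 31.98 and 36.3 TPM after heat. WRKY factors, which mostly serve defense, leaned the other way, with 6 of 42 higher and 17 lower. WRKY18 rose from 13.3 and 16.1 TPM to 75.5 and 74.6 TPM, WRKY46 from 3.98 and 3.36 TPM to 32.9 and 21.4 TPM, and WRKY47 fell from 18.4 and 17.8 TPM to 2.43 and 1.69 TPM.

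Evening repressors of the circadian clock rose, and the morning repressors LHY and CCA1 fell. Of 18 core clock genes 11 rose and 5 fell, with changes from -3.65 to 4.65. The RVE and PRR genes of the list did not move as 1 group. RVE2 rose from 7.33 and 6.43 TPM to 45.8 and 53.1 TPM, and RVE8 fell from 19.3 and 21.7 TPM to 3.27 and 3.12 TPM. PRR9 fell too, with a change of -1.98, and AT5G52660 rose by 1.11. LHY and CCA1, the morning repressors, fell from 35.1 and 33.8 TPM to 1.71 and 1.93 TPM and from 82.4 and 82.9 TPM to 13.6 and 12.9 TPM. The evening repressors moved oppositely: ELF4 had 1.63 and 4.25 TPM in the control libraries and 95.2 and 89.9 TPM in the heat libraries, TOC1 rose from 9.46 and 9.11 TPM to 50.6 and 67.6 TPM, PRR5 from 1.71 and 2.09 TPM to 33.8 and 35.2 TPM and PRR3 from 0.128 and 0.499 TPM to 19.9 and 22.8 TPM. PRR7 and ZTL did not pass the test, with 73.6 and 76.2 TPM without heat and 62.2 and 75.7 TPM after heat for PRR7 and 25.6 and 24.1 TPM without heat and 24.7 and 30.2 TPM after heat for ZTL. The flowering regulators CO and FKF1, output genes that peak late in the day, moved with the evening group. Both were below 1 TPM in both controls and rose to 17.1 and 20.2 TPM and to 16.3 and 21.5 TPM. They were picked out after their values were seen, and late-day output genes were not counted as a list. As the hour of harvest is not given for either group, clock phase and temperature cannot be told apart here.

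The evening element, AAAATATCT read on either strand, is the sequence through which the morning factors LHY and CCA1 repress evening genes. It was found in 7 of the 43 promoters at least 32-fold higher (16.3%), in 8.41% of those 8- to 32-fold higher, 3.71% of those 2- to 8-fold higher and 2.79% of those not called or under 2-fold. Genes at least 8-fold lower gave 2.70%, all members 3.06% and all promoters of the table's genes 2.82%. The 250 bases before the start are printed for 2 of the 7 genes, with the element in capitals.
GRP7, chr2:9266558-9266807, minus strand: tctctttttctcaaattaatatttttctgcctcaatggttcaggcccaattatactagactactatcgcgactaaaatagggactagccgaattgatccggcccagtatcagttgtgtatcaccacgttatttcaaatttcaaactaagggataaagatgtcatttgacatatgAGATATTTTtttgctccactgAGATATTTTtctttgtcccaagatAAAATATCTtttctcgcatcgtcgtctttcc
HSFA3, chr5:974327-974576, minus strand: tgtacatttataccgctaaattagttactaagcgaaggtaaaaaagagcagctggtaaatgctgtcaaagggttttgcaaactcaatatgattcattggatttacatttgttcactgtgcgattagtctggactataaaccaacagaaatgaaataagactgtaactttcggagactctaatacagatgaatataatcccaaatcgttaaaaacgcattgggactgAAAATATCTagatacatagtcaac
GRP7, a clock-controlled RNA-binding protein, holds 3 copies and stood at 83.2 and 81.8 TPM in the control libraries and 2921 and 3692 TPM in the heat libraries. HSFA3 holds 1, beginning 24 bases before the start, and no heat shock element of 3 units. Others of the 7 were the small heat shock protein gene AT5G51440, JMJD5, AT1G56300 and AT1G58120. None of the 43 promoters held both the evening element and the heat shock element of 3 units.

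Genes that respond to darkness and lack of sugar did not rise. Of 11 such members 8 fell, 0 rose and the median was -1.21. ASN1, an asparagine synthase, fell from 24.4 and 17.1 TPM to 0.133 and 0.133 TPM, SEN1_2 from 72.2 and 72.1 TPM to 2.82 and 2.26 TPM and DIN10, of the raffinose synthase family, from 300.4 and 312 TPM to 51.4 and 47.1 TPM. Of 20 phytochrome and light-signalling genes 9 fell and 5 rose, with 11 and 1 under median-of-ratios scaling, 11 and 2 under quantile normalization, 8 and 3 without control replicate 2 and 10 and 3 without heat replicate 2. The factors PIF4 and PIL6, which promote elongation, fell: PIF4 had 60 and 66.6 TPM in the control libraries and 1.69 and 2.54 TPM in the heat libraries, and PIL6, also called PIF5, 114 and 111 TPM in the control libraries and 11.8 and 16.3 TPM in the heat libraries. The blue-light receptor CRY1 fell from 145 and 145 TPM to 38.2 and 48.9 TPM. In each of these falling genes both heat libraries lay below both controls. The 5 that rose were PIF3, the phytochrome genes PHYA, PHYB and PHYC, and HY5, which promotes light-dependent development and went from 14.01 and 9.48 TPM to 24.7 and 21.9 TPM.

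**Figure D4:**
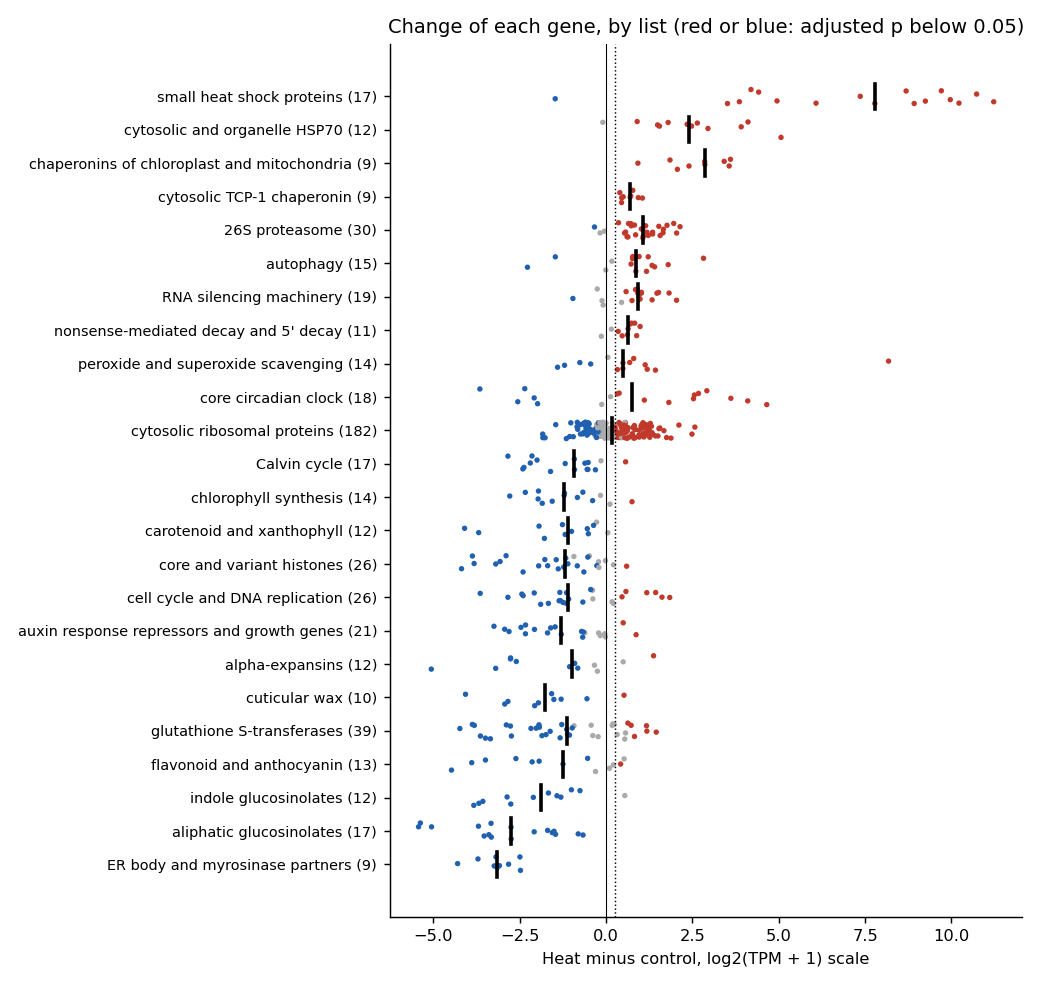
Change of each member (heat minus control on the log2(TPM + 1) scale) for 24 lists, with the number of members in brackets, red for a rise and blue for a fall at an adjusted p below 0.05, grey otherwise. Black bars mark list medians, and the dotted line the median of all members at 0.26; chaperone lists lie to the right and glucosinolate and endoplasmic reticulum body lists to the left. The median of the cytosolic ribosomal proteins turns negative under median-of-ratios scaling and quantile normalization.

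Photosynthesis genes made up the largest losses of RNA. LHCB2.3 (chromosome 3, 10255906 to 10257489), an antenna protein of photosystem II, had 1892 and 1794 TPM in the control libraries and 0.249 and 2 TPM in the heat libraries, a change of -9.90 ± 0.33, the lowest of any member at 10 TPM or more. CAB2 fell from 9588 and 9284 TPM to 191 and 232 TPM and its neighbour CAB1 from 16176 and 15128 TPM to 2102 and 1954 TPM; CAB1, CAB2 and CAB3 are near-identical copies, so the split between them is uncertain. LHCA4, of the photosystem I antenna, fell from 9632 and 9607 TPM to 603 and 806 TPM. RBCS1A, the main Rubisco small subunit, remained the most abundant transcript of the losses, at 18512 and 18147 TPM without heat and 12314 and 11678 TPM after heat, and its change of -0.61 ± 0.14 was 0.000 under quantile normalization. Of 17 Calvin cycle genes 15 fell and 1 rose, and their sum went from 7.02% and 7.05% to 3.18% and 3.29% of all TPM. SBPASE, which regenerates the carbon acceptor, fell from 1409 and 1443 TPM to 214 and 184 TPM, and RCA, the heat-labile activase of Rubisco, from 11041 and 10659 TPM to 2063 and 2024 TPM. The named light harvesting genes and most Calvin cycle genes therefore fell in the same libraries. The antenna genes were named for their large falls, and antenna genes were not counted as a list.

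Pigment and starch genes fell with them. Of 14 chlorophyll synthesis genes 11 fell and 1 rose (median -1.21). CH1, chlorophyll a oxygenase, fell from 299 and 311 TPM to 38.3 and 48.98 TPM, GUN5, a magnesium chelatase subunit, from 1235 and 1239 TPM to 229 and 260.4 TPM, and HEMA1, which starts tetrapyrrole synthesis, from 620.0 and 597 TPM to 152 and 157 TPM. The exception was HEMA2, the isoform of non-green tissue, which rose from 18.3 and 15.4 TPM to 30.2 and 27.8 TPM. Of 12 carotenoid genes 10 fell and none rose: PSY, the entry enzyme, fell from 324 and 341 TPM to 75.3 and 98.2 TPM and ABA1, zeaxanthin epoxidase, from 473 and 455 TPM to 35.9 and 34.3 TPM. Of 15 starch genes 9 fell and 4 rose, with 2 of the 4 rises left under median-of-ratios scaling, under quantile normalization and without heat replicate 2. APL1, a subunit of the enzyme that makes ADP-glucose, fell from 361 and 369.9 TPM to 46.6 and 54.6 TPM, whereas PWD_2, which phosphorylates starch during breakdown, rose from 22.2 and 18.5 TPM to 70.6 and 79.95 TPM. Chloroplast-encoded genes showed no common direction: of 55 members 10 rose and 11 fell, and their median of 0.16 was -0.04 under median-of-ratios scaling. The stranded mRNA kit selects polyadenylated RNA, so these values describe polyadenylated chloroplast RNA and not the total level of chloroplast transcripts. Amount and polyadenylation of chloroplast transcripts cannot be told apart.

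Nutrient and redox genes split by enzyme. FRO6 (chromosome 5, 20201037 to 20204595), a ferric reductase of leaf cells, had 160.0 and 174 TPM in the control libraries and 1.06 and 0.93 TPM in the heat libraries, and FRO7, its chloroplast relative, fell from 73.6 and 73.7 TPM to 14.4 and 17.3 TPM; of the iron-storage ferritins, FER2, FER3 and FER4 rose, from 0.938 and 2.44 TPM to 18.5 and 14.7 TPM, from 76.8 and 67.7 TPM to 168 and 131 TPM and from 50.8 and 49.8 TPM to 104 and 105 TPM. FER1, the ferritin with the highest TPM, was lower, from 764 and 599 TPM to 552 and 472 TPM, a change of -0.41 that was not called without control replicate 1 (-0.23), without heat replicate 2 (-0.29) or without the intensity trend. In nitrogen assimilation NIR1, nitrite reductase, rose from 328 and 314 TPM to 618 and 698 TPM, while GS2 and GLU1, which assimilate ammonium in plastids, fell from 1803 and 1922 TPM to 725 and 789.6 TPM and from 701 and 741 TPM to 169.7 and 245 TPM. Of 14 peroxide and superoxide scavenging genes 9 rose and 4 fell. APX2, a cytosolic ascorbate peroxidase known for its heat induction, had 0.672 and 1.31 TPM in the control libraries and 622 and 521 TPM in the heat libraries, a rise of 8.18 ± 0.16. The catalases parted: CAT1 rose from 45.8 and 38.4 TPM to 97.5 and 89.2 TPM, CAT2_2 fell from 1103 and 1024 TPM to 459 and 465 TPM and CAT3_1 from 622 and 523 TPM to 202 and 229 TPM.

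Genes of cell division and growth fell. Of 26 histone genes 19 fell and 1 rose (median -1.19); the rise, of HTA8, was lost without control replicate 1 (0.29), without heat replicate 1 (0.55), without heat replicate 2 (0.64) and in other settings. HTA6, a histone H2A, fell from 109.5 and 108 TPM to 3.28 and 7.51 TPM, and the histone H3 gene AT1G09200 from 133 and 129 TPM to 8.6 and 8.15 TPM. Of 26 cell cycle and replication genes 16 fell and 6 rose, with both directions within the replication machinery. The mitotic cyclin CYC1BAT fell from 18.5 and 12.5 TPM to 0.2 and 0.401 TPM and the mitotic kinase CDKB2;2 from 10.6 and 15.1 TPM to 2.36 and 2.1 TPM, whereas PCNA2, the sliding clamp of replication, rose from 25.5 and 30.8 TPM to 85.2 and 70.6 TPM. MCM5, a subunit of the replicative helicase, rose from 11.1 and 11.7 TPM to 42.7 and 44.2 TPM, but its partners in the same ring fell, MCM3 from 11.2 and 11.7 TPM to 4.69 and 5.07 TPM and MCM6 from 7.14 and 9.12 TPM to 2 and 3.89 TPM.

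Growth hormone and wall genes fell in most cases. Of 21 auxin response repressors and auxin-linked growth genes 14 fell and 2 rose (median -1.30): SHY2, also called IAA3, fell from 55.4 and 48.9 TPM to 3.5 and 5.95 TPM and IAA16 from 158 and 148 TPM to 16.95 and 21.5 TPM. Of 17 brassinosteroid and gibberellin genes 10 fell and 3 rose. GASA6 fell from 154 and 194 TPM to 4.82 and 10.9 TPM, opposite to its relative GASA1, and BES1, a brassinosteroid-response factor, fell from 98.4 and 86.5 TPM to 18.7 and 17.1 TPM. Of 12 alpha-expansins, which loosen walls, 8 fell and 1 rose, with EXPA8 at 79.1 and 74.02 TPM without heat and 0.551 and 2.49 TPM after heat. Of 21 xyloglucan endotransglucosylases 13 fell and 4 rose, with XTH6 falling from 102 and 118 TPM to 9.69 and 11.5 TPM and XTH18 rising from 26.4 and 18.03 TPM to 72.6 and 44.9 TPM. Cellulose synthases moved least, with 6 of 8 lower and changes from -0.82 to -0.08. Of 10 cuticular wax genes 9 fell, KCS1, a fatty acid elongase, from 73.8 and 83.1 TPM to 3.38 and 4.11 TPM and KCS6 from 255 and 275 TPM to 35.2 and 37.03 TPM. Of 13 plasma membrane aquaporins 8 fell and 3 rose: PIP1A fell from 318 and 305 TPM to 45.3 and 51.1 TPM while PIP2E rose from 208 and 187 TPM to 485 and 432 TPM.

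Defense metabolites were the lists with the lowest medians. All 17 aliphatic glucosinolate genes fell, by 0.67 to 5.43, with a median of -2.75, and their sum went from 0.161% and 0.155% to 0.0385% and 0.0361% of all TPM. CYP79F1, which starts the core pathway, had 85.1 and 77.5 TPM in the control libraries and 1.34 and 0.56 TPM in the heat libraries. MAM1, of chain elongation, fell from 254 and 214 TPM to 4.45 and 4.82 TPM and CYP83A1 from 224 and 203 TPM to 5.36 and 5.56 TPM. Of 12 indole glucosinolate genes 11 fell and none rose (median -1.89), with CYP81F2, which modifies the indole ring, at 32.9 and 18.6 TPM without heat and 0.62 and 1.04 TPM after heat. All 9 genes listed for the endoplasmic reticulum body and for myrosinase partners fell (median -3.15). The body is a store of the myrosinase-like beta-glucosidases that split glucosinolates. NAI2, needed to form the body, fell from 125 and 143 TPM to 10.1 and 8.58 TPM and PYK10, its main enzyme, from 1075 and 1109 TPM to 151 and 107 TPM. PYK10 is also a root marker, and of the 8 root markers that passed the filter 4 fell and 1 rose. The falls include PYK10, BGLU21 and BGLU22, which are already counted in the endoplasmic reticulum body list. The summed level of all 15 root genes was 0.113% and 0.116% of TPM in the controls and 0.0173% and 0.0137% after heat. PYK10 alone gave 1075 and 1109 of the 1125 and 1157 TPM summed in the controls, so the sum mostly restates its fall. The part that root content had in these falls was not tested. The fourth fall was CASP1, from 3.18 and 4.26 TPM to 0.404 and 0.81 TPM. The rise was WOX5, from 0 and 0.333 TPM to 1.74 and 1.39 TPM. CASP2, SCR and SHR were not called. SCR went from 21.6 and 18.7 TPM to 12.6 and 17.8 TPM, and SHR from 8.1 and 6.77 TPM to 6.22 and 6.57 TPM. CASP2 went from 1.08 and 1.41 TPM to 0.367 and 0.736 TPM. PLT1 and PLT2, which did not pass the filter, were listed at 0 in both heat libraries.

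Other protective chemistry fell too. Of 13 flavonoid genes 8 fell and 1 rose: DFR and GSTF12, late anthocyanin genes, went from 25.04 and 17.97 TPM and from 12.1 and 8.63 TPM to being listed at 0 in both heat libraries. The rise, of UGT78D2, was lost under median-of-ratios scaling (0.14), under quantile normalization (0.18) and without control replicate 1 (0.38). Of 39 glutathione S-transferases 23 fell and 6 rose, and 2 neighbouring genes of the tau class show the split: GSTU20 had 607 and 541 TPM in the control libraries and 35.02 and 24.9 TPM in the heat libraries, and GSTU19 581 and 493 TPM in the control libraries and 1393 and 1045 TPM in the heat libraries. Of 20 salicylic acid and defense genes 10 fell and 3 rose, with 6 lower without control replicate 1 and 5 lower without heat replicate 2. PR1, the salicylic acid marker, had 26.7 and 24.5 TPM in the control libraries and 2.43 and 0 TPM in the heat libraries. Jasmonate genes had no common direction, with 8 of 22 higher and 6 lower and a median of 0.13 that was -0.12 under median-of-ratios scaling, -0.02 under quantile normalization, and -0.08 and -0.04 without control replicate 2 and without heat replicate 2; AOC2 rose from 115 and 88.6 TPM to 394 and 443 TPM and its paralog AOC1 fell from 83.5 and 55.9 TPM to 15.9 and 18.8 TPM.

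Abscisic acid and drought genes did not respond as a unit. Of 27 abscisic acid genes 13 fell and 5 rose. ABA1, which supplies the precursor and is also counted with the carotenoid genes, fell by 3.69 ± 0.08, and ABA2, of a later step, fell from 26.1 and 21.9 TPM to 7.4 and 8.35 TPM. CYP707A4, which breaks the hormone down, rose from 2.26 and 0.801 TPM to 36.5 and 29.9 TPM, and NCED3, the stress-induced synthesis gene, did not pass the test at 3.02 and 3.08 TPM without heat and 1.34 and 1.48 TPM after heat. Among signalling genes SNRK2.2, a kinase, rose from 55.7 and 46.5 TPM to 158 and 159.9 TPM and the factor ABF3 fell from 43.8 and 37.7 TPM to 10.9 and 12.7 TPM. Of 20 dehydration genes 9 rose and 9 fell, and the median of -0.09 was 0.27 without control replicate 1 and 0.07 without heat replicate 1. KIN2 rose from 22.98 and 21.02 TPM to 234 and 204 TPM and ERD10, a dehydrin, from 121 and 119.9 TPM to 257 and 232 TPM, while the dehydrin RAB18_2 fell from 79.5 and 102 TPM to 7.04 and 9.75 TPM and the late embryogenesis abundant gene LEA7 from 22.6 and 34.9 TPM to 0.404 and 0.405 TPM. The DREB2 genes above, which belong to the same list, rose.

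Compatible solutes and lipids changed at single steps. GolS1, galactinol synthase and the entry to raffinose, had 15.7 and 12.6 TPM in the control libraries and 422 and 375 TPM in the heat libraries, a rise of 4.72 ± 0.15, while SIP1_2, a raffinose synthase, fell from 13.2 and 15.9 TPM to 5.74 and 6 TPM. In proline metabolism P5CS1, the stress-inducible first step, fell from 94.9 and 71.6 TPM to 11.4 and 11.2 TPM, P5CR, the last step, rose from 62.2 and 72.1 TPM to 383 and 402 TPM, and ERD5, proline dehydrogenase, fell from 140.2 and 106 TPM to 16.8 and 18.7 TPM. FAD8, a plastid desaturase known from cold, fell from 100.4 and 109 TPM to 9.21 and 10.7 TPM. SQD1, of sulfolipid synthesis, rose from 88.6 and 124 TPM to 405 and 348 TPM. TAG1 and DGAT2, which both complete triacylglycerol, rose from 3.78 and 2.15 TPM to 39.9 and 42.1 TPM and from 25.1 and 26.9 TPM to 223 and 194 TPM. Neither the desaturase and membrane lipid list nor the triacylglycerol list kept 1 sign of its median: -0.06 became 0.04 without control replicate 2 and 0.11 without heat replicate 1, and 0.00 became -0.27 under median-of-ratios scaling, -0.25 under quantile normalization, and -0.10 and -0.05 without control replicate 2 and without heat replicate 2.

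**Figure D5:**
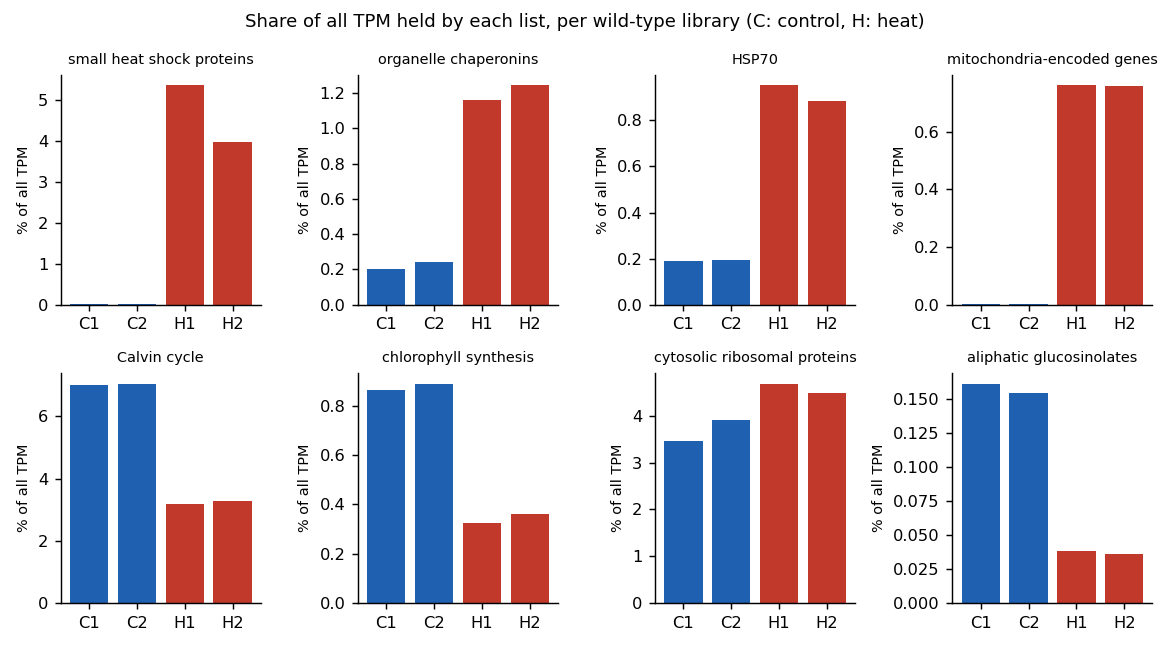
Percent of all TPM held by 8 lists in each wild-type library (C1 and C2 control, H1 and H2 heat), with bars from 0. The small heat shock protein bars go from 0.0214% and 0.0198% to 5.36% and 3.99%, and the Calvin cycle bars from 7.02% and 7.05% to 3.18% and 3.29%.

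Many genes crossed the edge of detection, and the direction depended on rows of mitochondrial sequence. There were 147 members below 1 TPM in both controls and at least 10 TPM in both heat libraries, and 81 with the reverse pattern. Of the 147, 50 were encoded in the mitochondrial genome and 40 were nuclear copies of it, defined as genes with at least 90% of their 31-base words in the mitochondrial genome. None of the 81 was either, so without such rows 57 members came on and 81 went off. All 70 such copies among the members lay on chromosome 2 between 3239693 and 3502294 of TAIR10.1, where the nuclear genome is known to carry a long insertion of mitochondrial DNA, and 69 of the 70 rose and none fell. The copies share reads with the organelle's own genes, so which of them was transcribed is uncertain, and most of them could pass the member filter only through the heat libraries. The other 57 included HA9, a plasma membrane proton pump listed at 0 in both controls and at 48.2 and 42.9 TPM after heat, CUL2, a cullin, which rose from 0.144 and 0.141 TPM to 93.6 and 74.3 TPM, PUM9, an RNA-binding Pumilio protein, from 0 and 0.347 TPM to 38.9 and 49.8 TPM, and SRO3, from 0 and 0.57 TPM to 73.04 and 58.1 TPM. The highest was AT2G01008, from 0.224 and 0.656 TPM to 361 and 329.7 TPM; these genes were picked out after their values were seen. Of the 81, named in the same way, AUR1, an Aurora kinase of mitosis, fell from 10.7 and 12.3 TPM to 0.242 and 0.97 TPM, MAD2, of the spindle checkpoint, from 12.7 and 13.5 TPM to 0 and 0.863 TPM, and DIR1, a lipid-transfer protein of systemic defense, from 31.4 and 27.6 TPM to 0 and 0 TPM.

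Mitochondria-encoded genes were close to absent in the controls and present after heat. Of 122 rows 95 passed the member filter, and 62 and 70 of the 95 were listed at 0 in the controls and none in the heat libraries. All 95 were called upward, a count that the filter favours, since most passed it only through the heat libraries. The sum over all 122 rows does not depend on that filter and went from 0.00338% and 0.00363% to 0.760% and 0.759% of all TPM. The prp43a libraries, which share none of these samples, gave 0.00337% and 0.00365% without heat and 0.744% and 0.774% after it. Of the genes of the respiratory chain, atp1, an ATP synthase subunit, went from 0.236 and 1.61 TPM to 583 and 579 TPM, cox1, of cytochrome oxidase, from 0.453 and 0.442 TPM to 381 and 381 TPM, and nad6, of complex I, was listed at 0 in both controls and at 284 and 250.1 TPM after heat. Libraries were made with a stranded mRNA kit, which selects polyadenylated RNA, so the values describe polyadenylated mitochondrial RNA, and amount and polyadenylation of these transcripts cannot be told apart. Of the nuclear respiratory bypass genes, AOX1A, the alternative oxidase, rose from 46.4 and 35.9 TPM to 72.05 and 60.6 TPM and NDA1, an alternative dehydrogenase, fell from 111 and 100.4 TPM to 11.8 and 11.7 TPM.

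Genes often taken as constant in expression assays did not stay constant. Of 23 such members 16 rose and 4 fell, and the median was 0.58; under median-of-ratios scaling 13 rose and 5 fell, with a median of 0.30, and under quantile normalization the counts were also 13 and 5. UBQ4, a polyubiquitin, rose from 51.4 and 49.9 TPM to 218 and 188 TPM, AT4G26410 from 43.4 and 42.1 TPM to 139 and 145 TPM and AT5G19510, of translation elongation, from 331 and 415 TPM to 1120.1 and 1230.3 TPM. GAPC2, of glycolysis, fell from 1375 and 1504 TPM to 684 and 663 TPM and UBC9 from 115 and 123 TPM to 60.01 and 61.3 TPM. Changes in the list therefore ran from -1.09 to 1.98.

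Genes with the largest rises had short, simple transcripts. The 43 nuclear genes at least 32-fold higher had a median of 2 exons and 30.2% had a single exon, against 4 exons and 15.1% for all 18696 members with a promoter. Their median transcript length was 1334 bases against 1742. Genes at least 8-fold lower had a median of 3 exons, 18.9% without introns and 1445 bases. Genes 2- to 8-fold higher had 5 exons and 1755 bases, so the short structure went with the largest rises and, in part, with the largest falls.

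The prp43a seedlings repeated the response in libraries of their own. Over members, the heat changes in wild type and in prp43a correlated at 0.964, a description over genes, which are not independent replicates. In prp43a 71.4% of members were called. Of the 13606 genes called in wild type 13454 moved the same way in prp43a, and 89.7% were also called; of the 13500 called in prp43a 90.4% were called the same way in wild type. Of the 8264 genes called with at least a 2-fold change, 53 had the opposite sign in prp43a. The difference of the heat responses was itself called for 2 genes, or 0.0106% of members, with 1189 at an unadjusted p below 0.05, and those 2 are LTI65 and RAB18_2.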

How the data were processed

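Total RNA libraries of whole seedlings were made with a stranded mRNA kit and sequenced as paired reads, per the labels' protocols. The authors deposited 1 table of TPM values; the submitters' processing notes name TAIR10 and no aligner or counter. Strand use in counting is not stated, and near-identical or overlapping genes may share reads.

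TPM values were tested as log2(TPM + 1) with limma 3.58.1 in R 4.3.3: a mean per group over all 8 libraries, an intensity trend, and Benjamini-Hochberg adjustment over the 19697 genes with at least 1 TPM in at least 2 libraries. A change is heat minus control on that scale, which understates low genes, and is called at an adjusted p below 0.05; ± is the SE. The fit was tested on simulated data. TPM multiplied by TAIR10.1 exon length gave whole reads within 0.05 for 99.2% of values up to 200 reads, which gives the depth; whether 1 unit is a read or a pair is unknown. Loci were matched by ID for 27445 rows.

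Members and the 55 gene lists were chosen with earlier results of these data known. Named genes were the 10 largest gains and losses of TPM, the 5 highest and lowest changes among called genes with at least 10 TPM in a group and no overlap, up to 3 called genes per list and direction, and genes with a called difference between genotypes; further genes of a list are named from its whole range. Alternatives were other pseudocounts, filters and scalings, organelle rows removed, no trend, voom on recovered reads, a replicate block, wild-type libraries alone, and each library left out.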

Additional observations from a re-analysis of the deposited data

Results flagged for a closer look

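The heat response of LTI65, a drought- and cold-induced gene, differed between the genotypes by 3.83 ± 0.37 on the log2 scale (prp43a minus wild type, SE, limma adjusted p = 0.013). Wild type had 28.1 and 34.7 TPM in the control libraries and 3.53 and 4.55 TPM in the heat libraries. In prp43a it had 2.01 and 1.32 TPM in the control libraries and 3.73 and 6.23 TPM in the heat libraries. The heat libraries of the genotypes overlapped in range, and the prp43a controls lay below both wild-type controls.

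The heat response of RAB18_2, a dehydrin gene, differed in the same way, by 3.17 ± 0.31 (limma adjusted p = 0.013). Wild type had 79.5 and 102 TPM in the control libraries and 7.04 and 9.75 TPM in the heat libraries, and prp43a had 11.7 and 7.91 TPM in the control libraries and 8.19 and 9.5 TPM in the heat libraries. Neither difference was called when any of the 8 libraries was left out, with adjusted p from 0.081 to 0.21 for LTI65 and from 0.063 to 0.34 for RAB18_2.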

How the results depend on the processing

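With 2 libraries a group and 4 residual degrees of freedom, single genes of small change are the least certain results. The count of genes called in wild type, 13784 of 19697 tested, lay between 12213 and 13563 without any 1 library, between 58.6% and 62.7% of them higher. The upward share was 49.6% under median-of-ratios scaling. The count at 2-fold or more was 5226 with a pseudocount of 5. Of 4945 alternative values for the 261 named genes 4887 kept direction and call, 57 kept direction alone, and RBCS1A under quantile normalization was 0.000. Of 53 list medians 9 changed sign under 1 or more settings, 24 changes in all; those of chlorophyll breakdown (0.06, and -0.21 without control replicate 2) and of the iron list (-0.41, and 0.28 without control replicate 2) are not given above. The list counts under scalings and without libraries were added after the data had been seen.

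The difference of the heat responses was called for 0 genes with a pseudocount of 0.1, 0 without the filter on low values and 0 without the trend, 7 with a pseudocount of 5, 4 with the filter at 5 TPM, and 0 in every limma fit without 1 library. Same-numbered replicates did not deviate together (correlation of wild-type control and heat deviations 0.028). No shared shift of same-numbered libraries was seen, but this cannot tell whether they were grown or harvested together. The fit with the replicate number as a block called 13748 genes in wild type and 4 for the difference.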
